A study of Homo sapiens with 2 samples.

Results

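The genes described here encode 10 intermediate filament proteins: vimentin (VIM), 6 keratins (KRT7, KRT8, KRT18, KRT19, KRT80 and KRT81) and the nuclear lamins (LMNA, LMNB1 and LMNB2). They were chosen by name, with earlier results of these data known, and all 10 had a row among the 29452 gene rows of the deposited table. The cells were MDA-MB-231, an established human breast cancer line of triple-negative type and mesenchymal character, profiled by RNA sequencing. The first group, CDK14-sh, carried a short hairpin RNA against CDK14, a cyclin-dependent kinase of the Wnt pathway, and the second carried a scramble control. With 1 library in each group, the differences are without a check by replicates and carry no p-value. The labels give neither the hairpin's sequence nor the number of hairpins or clones, and higher and lower describe these 2 libraries only.

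Intermediate filaments are rope-like polymers that give cells and nuclei mechanical strength. Keratins assemble only as pairs of a type I and a type II chain and mark epithelial cells, while vimentin forms filaments on its own and marks mesenchymal cells. Carcinoma lines that have passed through an epithelial-to-mesenchymal transition can carry both networks side by side. The lamins form a meshwork under the inner nuclear membrane, and A-type lamins are known for setting nuclear stiffness.

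Reads assigned to genes numbered 15478156 for CDK14-sh and 17217564 for the scramble control. Values are RPKM, reads per kilobase of summed exons scaled to the assigned reads of the library, so that levels of different genes are compared per length. A range in parentheses is a 95% Clopper-Pearson interval from the recovered reads and covers counting error only. CDK14 itself stood at 0.548 RPKM (58 reads) in CDK14-sh and 2.48 RPKM (292 reads) in the scramble control, which is 22.1% of the control level (16.4% to 29.4%). The CDK14 row shares 201 bases (2.94%) with CLDN12 on the same strand, which had 1034 and 1014 reads. It also shares 47 bases each with AC006153.3 and CTB-13L3.1 on that strand. The 6 markers of a mesenchymal triple-negative line, VIM among them, all reached 1 RPKM and summed to 487.6 RPKM in CDK14-sh and 747.1 RPKM in the scramble control. Of these, MSN stood at 84.8 and 217.5 RPKM, AXL at 123 and 130 RPKM and CD44 at 92.2 and 79.7 RPKM in CDK14-sh and the scramble control. In the same order, CAV1 stood at 36.1 and 65.2 RPKM and CAV2 at 5.49 and 5.43 RPKM, so the markers differed in their ratios. Of the markers listed for a luminal line, CDH1 (0 and 2 reads), PGR (0 and 3 reads) and ESR1 (8 and 2 reads) were at or near 0 in both. FOXA1 was also near 0, with 9 and 3 reads, ERBB3 stood at 0.537 and 0.671 RPKM, and TFF1 had no row. Of the 10 luminal markers 4 reached 1 RPKM, with XBP1 at 16.8 and 18.0 RPKM, EPCAM at 5.46 and 5.33, GATA3 at 2.56 and 2.4996, and SPDEF at 1.72 and 6.10. SPDEF was 3.54-fold lower (2.59 to 4.92). Summed RPKM in CDK14-sh and the scramble control was 27.3 and 32.6 for the 9 luminal markers with a row, 2.79 and 2.61 for 7 basal or myoepithelial markers, and 2.08 and 1.81 for 7 fibroblast markers. It was 1.14 and 1.06 for the 3 leukocyte markers with a row and 1.65 and 1.86 for 4 endothelial markers. Of these other lists, COL1A1 (fibroblast) and KDR (endothelium) reached 1 RPKM, and the part of other cells in the results was not tested. Mitochondrially encoded rows took 17.1% of CDK14-sh reads and 14.5% of scramble reads. In bulk RNA, fewer cells of a kind and less RNA per cell cannot be told apart.

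All 10 genes were lower in CDK14-sh, by 1.34-fold for LMNA at the least and 2.43-fold for KRT81 at the most. The median log2 ratio of the 10, computed with 0.1 RPKM added to each level, was -0.81, beside a median of 0.04 over the 14878 rows that reached 1 RPKM in the higher library. A log2 ratio below 0 was found in 10 of 10 members and in 45.3% of those rows. The members were chosen with earlier results known, so such counts only describe them. Of the 5 other filament genes that reached 1 RPKM, 3 were below 0. At least 1.5-fold lower were 8 of 10 members, against 9.55% of the rows, and at least 2-fold lower was 1 member, KRT81, against 3.47% of the rows. With mitochondrial rows left out of the library totals the median of the 10 was -0.77, and all 10 were still below 0. None of the 10 was at least 2-fold higher, as 3.21% of the rows were. Among the 7933 rows with at least 5 RPKM, the share standing below the member ran from 1.08% for KRT81 to 12.7% for LMNA. The plot of ratio against level shows the 10 genes on the lower side of the cloud at every level they occupy.

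**Figure D1:**
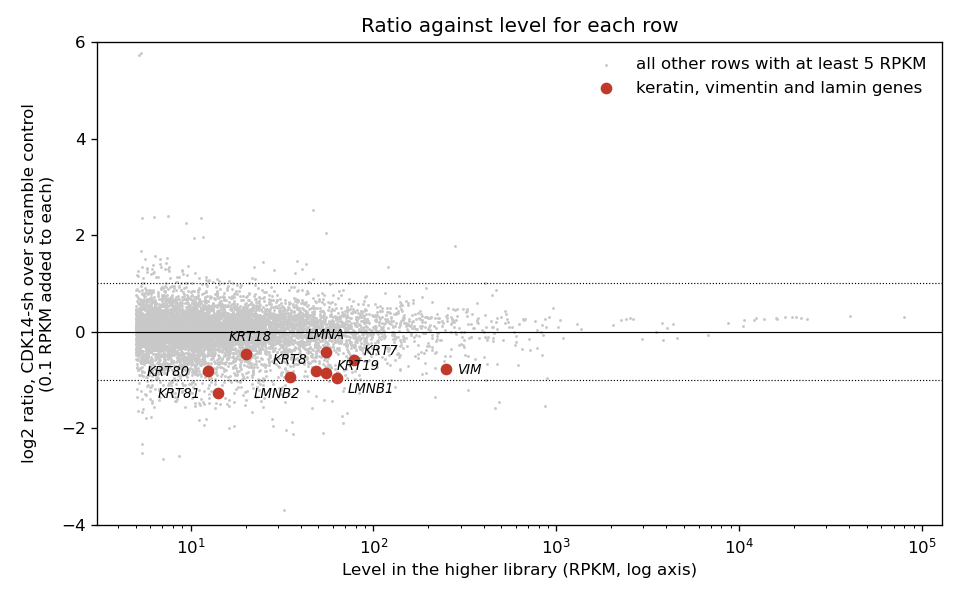
Each grey point is a row that reached 5 RPKM in the higher library, placed by that level (log axis) and by its log2 ratio of CDK14-sh over scramble control with 0.1 RPKM added to each. Dotted lines mark 2-fold. The 10 keratin, vimentin and lamin genes (red) all lie below 0, between -0.43 and -1.27.

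Vimentin is the filament protein by which mesenchymal cells are commonly recognised. VIM (chromosome 10, 17228259 to 17237593, plus strand, GRCh38) had the highest level of the 10 genes in both libraries. It stood at 146 RPKM (11663 reads) in CDK14-sh and 248.9 RPKM (22103 reads) in the scramble control. Among all rows it ranked 247 by level in CDK14-sh, against 127 in the scramble control. That is 1.70-fold lower in CDK14-sh (1.67 to 1.74), and 4.41% of the rows with at least 5 RPKM had a lower ratio. The 100 bases before the RefSeq start of VIM are shown because this gene holds the largest part of the filament transcripts. They lie at chr10:17228141-17228240 on the plus strand (GRCh38.p14), and capitals mark a GC box core.
VIM upstream: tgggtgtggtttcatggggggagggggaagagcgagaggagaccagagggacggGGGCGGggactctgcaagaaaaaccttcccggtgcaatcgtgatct

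Exons of the VIM row overlap antisense rows, of which VIM-AS1 shares 641 of the 5158 VIM bases (12.4%). VIM-AS1 stood at 130 RPKM in CDK14-sh and 217 RPKM in the scramble control, 1.68-fold lower (1.61 to 1.74). Another antisense row, RP11-124N14.3, shares 619 bases (12.0%) and stood at 383.8 RPKM in CDK14-sh and 618 RPKM in the scramble control, above VIM itself. The level of VIM over that of VIM-AS1 was 1.13 (1.09 to 1.17) in CDK14-sh, against 1.15 (1.12 to 1.18) in the scramble control. The VIM-AS1 row thus followed the vimentin row within counting error. Whether the counting used strand is not given in the sources used here, so reads of vimentin and its antisense partners cannot be told apart.

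**Figure D2:**
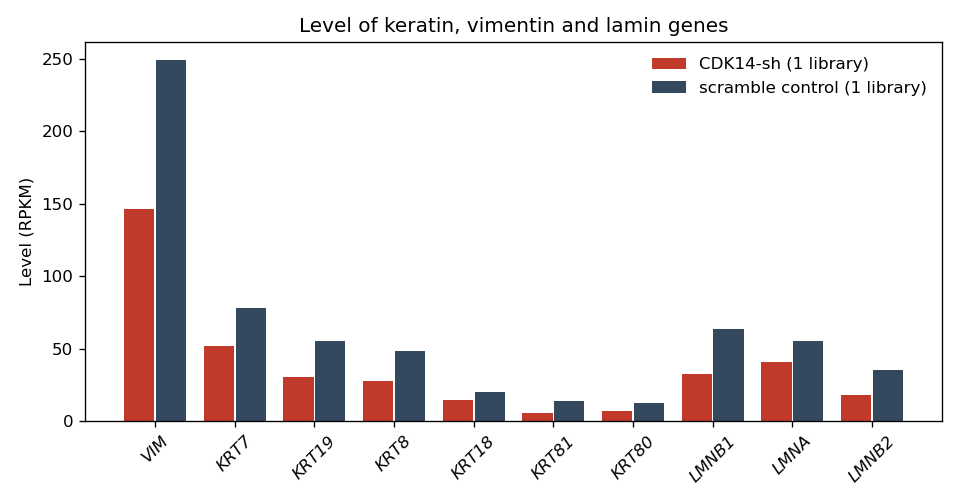
Bars give the RPKM level of each gene in the CDK14-sh library (red, left) and the scramble library (dark, right), 1 library each, on a linear axis from 0. VIM is highest in both, and each red bar is below its dark partner.

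The type II keratins of this group are KRT7 and KRT8, which belong to simple epithelia, KRT80, and KRT81, which is best known from hair. All 4 genes lie on chromosome 12, in the type II keratin cluster. KRT7 (52232520 to 52252186, plus strand) stood at 52.0 RPKM (3292 reads) in CDK14-sh and 78.3 RPKM (5518 reads) in the scramble control, 1.51-fold lower (1.44 to 1.57). Its row shares 282 bases (6.89%) with the antisense row RP3-416H24.1 and 32 bases with the antisense row KRT87P. KRT8 (52897187 to 52949954, minus strand) stood at 27.7 RPKM (2952 reads) in CDK14-sh and 48.6 RPKM (5763 reads) in the scramble control, 1.76-fold lower (1.68 to 1.84). These are the main type II keratins of both libraries, and KRT8 was the further from the control, with intervals that do not overlap.

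KRT80 (52168996 to 52192000, minus strand) stood at 7.04 RPKM (474 reads) in CDK14-sh and 12.5 RPKM (937 reads) in the scramble control, 1.78-fold lower (1.59 to 1.99). KRT81 (52285913 to 52291534, minus strand) stood at 5.79 RPKM (173 reads) in CDK14-sh and 14.1 RPKM (468 reads) in the scramble control, 2.43-fold lower (2.04 to 2.91). The level of KRT81 over that of KRT80 was 0.823 (0.687 to 0.982) in CDK14-sh, against 1.13 (1.01 to 1.26) in the scramble control. By RPKM, KRT81 was therefore the lower of this pair in CDK14-sh and the higher in the control, though both ratios lie close to 1. By reads, KRT81 was the lower in both libraries, so the order depends on the row lengths, 1929 bases for KRT81 and 4350 for KRT80. KRT86, a hair keratin gene much like KRT81 in sequence, was covered by 10 CDK14-sh reads and 57 scramble reads. With so few reads its 5.12-fold lower level carries an interval of 2.59 to 11.3, and reads of such close relatives may be assigned to either row.

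Type I keratins pair with these chains. KRT18, the usual partner of KRT8 (chromosome 12, 52948871 to 52952901, plus strand), stood at 14.4 RPKM (718 reads) in CDK14-sh and 20.03 RPKM (1110 reads) in the scramble control. It was 1.39-fold lower (1.26 to 1.53), the smallest difference among the 6 keratins. KRT19, the smallest keratin protein and a marker of simple epithelium (chromosome 17, 41523617 to 41528308, minus strand), stood at 30.4 RPKM (1098 reads) in CDK14-sh and 55.3 RPKM (2223 reads) in the scramble control. It was 1.82-fold lower (1.69 to 1.96), and its row overlaps no other.

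The 2 chains of the KRT8 and KRT18 pair thus differed in ratio. The level of KRT8 over that of KRT18 was 1.92 (1.77 to 2.09) in CDK14-sh, against 2.43 (2.28 to 2.59) in the scramble control, and these intervals do not overlap. For KRT8 over KRT19 the values were 0.913 (0.851 to 0.979) and 0.880 (0.838 to 0.925), which do overlap. The level of KRT19 over that of KRT18 was 2.11 (1.92 to 2.32) in CDK14-sh, against 2.76 (2.57 to 2.97) in the scramble control. Among these 3 keratins, KRT18 alone stood apart from the others in its ratio. It was not separable from KRT7 in this way. The level of KRT7 over that of KRT18 was 3.60 (3.32 to 3.91) in CDK14-sh and 3.91 (3.66 to 4.17) in the scramble control, and these intervals overlap.

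The KRT8 and KRT18 rows lie on opposite strands and share 525 bases, which is 7.63% of the KRT8 exons and 16.3% of the KRT18 exons. How reads in the shared bases were assigned is not given in the sources used here. Both genes also have many processed pseudogenes: GENCODE v29 names 50 for KRT8 and 67 for KRT18, of which 22 and 14 had rows. The KRT8 pseudogene rows summed to 103 CDK14-sh reads and 145 scramble reads, which is 3.49% and 2.52% of the reads of KRT8. Those of KRT18 summed to 11 and 7 reads, or 1.53% and 0.631%. How reads that match a gene and its copies were treated is likewise not given, so the levels of both genes are uncertain to that extent.

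**Figure D3:**
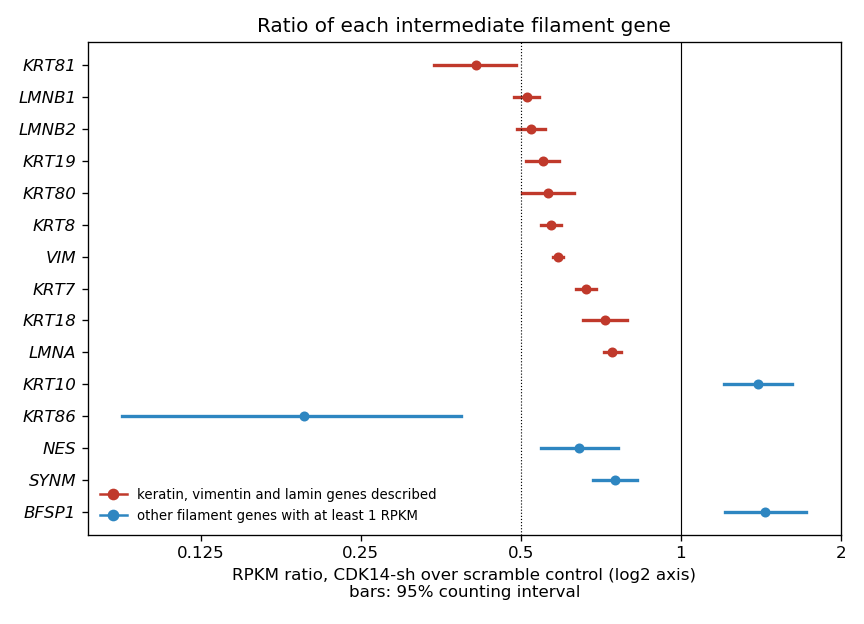
Points give the RPKM ratio of CDK14-sh over scramble control on a log2 axis, and bars its 95% counting interval, for the 10 genes described (red) and the other filament genes that reached 1 RPKM (blue). The dotted line marks 2-fold lower. KRT81 and KRT86 lie wholly below that line, and KRT10 and BFSP1 are higher in CDK14-sh.

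The lamins split by type. LMNA, which encodes lamins A and C (chromosome 1, 156082573 to 156140089, plus strand), stood at 41.1 RPKM (4441 reads) in CDK14-sh and 55.2 RPKM (6643 reads) in the scramble control, 1.34-fold lower (1.29 to 1.40). LMNB1, which encodes lamin B1 (chromosome 5, 126776623 to 126837020, plus strand), stood at 32.5 RPKM (1826 reads) in CDK14-sh and 63.3 RPKM (3962 reads) in the scramble control, 1.95-fold lower (1.84 to 2.06). LMNB2, which encodes lamin B2 (chromosome 19, 2427638 to 2456996, minus strand), stood at 18.3 RPKM (1553 reads) in CDK14-sh and 35.1 RPKM (3309 reads) in the scramble control, 1.92-fold lower (1.80 to 2.04). Both B-type genes thus lay near 2-fold, and LMNA had the smallest difference of all 10 genes.

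By RPKM, the order of lamins A and B1 differed between the libraries. By reads, LMNA was the higher in both, with 4441 against 1826 in CDK14-sh and 6643 against 3962 in the scramble control. The order thus depends on the row lengths, 6985 bases for LMNA and 3633 for LMNB1, while the difference in their ratio between libraries does not. The level of LMNA over that of LMNB1 was 1.26 (1.20 to 1.34) in CDK14-sh, against 0.872 (0.838 to 0.907) in the scramble control. The level of LMNB1 over that of LMNB2 was 1.77 (1.65 to 1.90) in CDK14-sh, against 1.80 (1.72 to 1.89) in the scramble control, so the B-type pair kept its proportion within counting error. The LMNB2 row shares 257 bases (4.70%) with TIMM13 on the same strand, while the LMNA and LMNB1 rows overlap no other. The 100 bases before the start of the LMNA and LMNB1 rows are shown because the ratio of these genes differed. They lie at chr1:156082473-156082572 and chr5:126776523-126776622, both on the plus strand (RefSeq, GRCh38.p14), and capitals mark a GC box core on the reverse strand of the LMNA window. Windows at further RefSeq starts of both genes hold GC box cores too and are not printed.
LMNA upstream: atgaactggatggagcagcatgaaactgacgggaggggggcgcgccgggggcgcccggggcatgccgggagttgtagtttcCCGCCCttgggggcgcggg
LMNB1 upstream: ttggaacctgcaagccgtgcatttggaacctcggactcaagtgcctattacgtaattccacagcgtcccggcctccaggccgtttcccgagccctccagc

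RefSeq promoters were matched for 5 of the 10 genes (VIM, KRT8, LMNA, LMNB1 and LMNB2), with 8 starts in all. On either strand of the 100 bases upstream, the GC box core GGGCGG occurred in 6 of these 8 windows, the exceptions being that of KRT8 and the LMNB1 window printed above. It occurred in 31.3% of all 35116 RefSeq promoter windows of that length and in 49.5% of those of genes with at least 5 RPKM. The TATA box core TATAAA, the AP-1 motif TGANTCA and the CCAAT box occurred in 0 of the 8 windows, and in 4.99%, 2.75% and 18.1% of all windows. These matches describe the letters of the windows.

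By RPKM, which depends on the length of each row, CDK14-sh had the order VIM, KRT7, LMNA, LMNB1, KRT19, KRT8, LMNB2, KRT18, KRT80 and KRT81. In the scramble control the order was VIM, KRT7, LMNB1, KRT19, LMNA, KRT8, LMNB2, KRT18, KRT81 and KRT80. The level of KRT19 over that of LMNA was 0.739 (0.691 to 0.790) in CDK14-sh and, with a value of 1.00 (0.953 to 1.05), not separable from equality in the scramble control. LMNB1 over KRT19 was 1.07 (0.992 to 1.15) in CDK14-sh, not separable from equality, and 1.15 (1.09 to 1.21) in the scramble control.

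Summed over the 10 genes, the filament transcripts stood at 375 RPKM in CDK14-sh and 631 RPKM in the scramble control, 1.68-fold lower. The shares of the 3 classes hardly differed between the libraries. Vimentin made up 38.9% of the summed RPKM in CDK14-sh, against 39.4% in the scramble control, keratins 36.6% and 36.2%, and lamins 24.5% and 24.3%. As sums, vimentin was 1.70-fold, keratins 1.67-fold and lamins 1.67-fold lower. Such shares do not depend on how the libraries are scaled to each other.

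Within the classes the make-up did differ. Type I chains took 32.6% of the keratin RPKM in CDK14-sh, against 32.9% in the scramble control, and without KRT8 and KRT18, whose rows overlap, 31.9% and 34.5%. The balance of chain types was thus close with these 6 keratins and less so with the remaining 4, and it depends on which keratins are counted. KRT10, a type I keratin outside the 10 genes, stood at 12.3 RPKM in CDK14-sh and 8.78 RPKM in the scramble control. Over all keratin rows, type I summed to 58.7 and 85.6 RPKM and type II to 92.9 and 155.0 RPKM. Of the 6 keratins, KRT7 took 37.8% in CDK14-sh, against 34.2% in the scramble control, and KRT18 took 10.5% and 8.75%. KRT19 took 22.1% and 24.2%, and KRT81 4.22% and 6.16%. Among the lamins, LMNA took 44.7% in CDK14-sh, against 35.9% in the scramble control, with LMNB1 at 35.3% and 41.2% and LMNB2 at 19.95% and 22.8%.

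**Figure D4:**
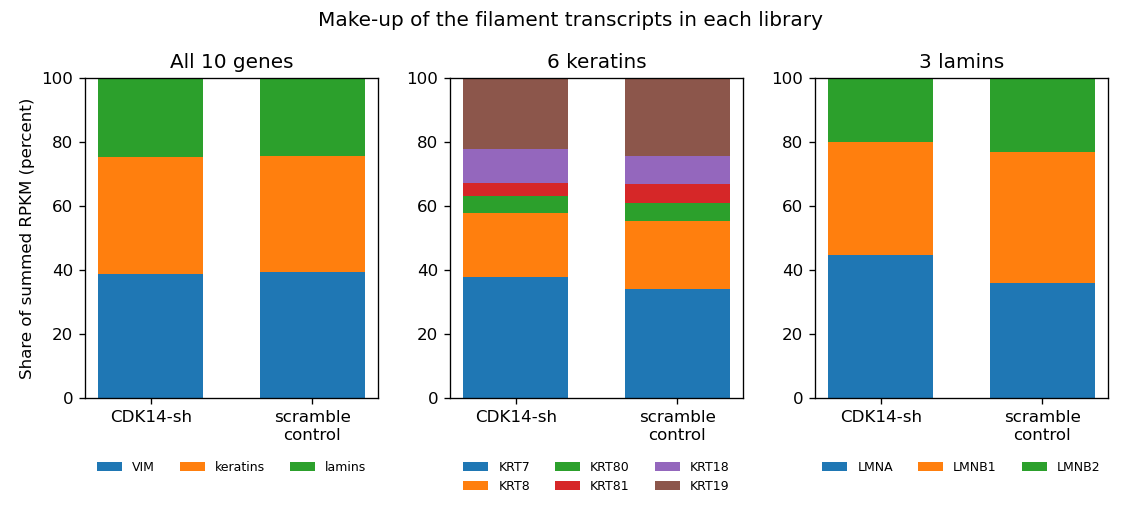
Stacked bars give the share (percent) of summed RPKM in CDK14-sh (left) and the scramble control (right) for all 10 genes, the 6 keratins and the 3 lamins. Vimentin, keratins and lamins take nearly the same shares in both libraries, while LMNA takes 44.7% of the lamins in CDK14-sh against 35.9%.

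The wider family was searched by a list of 69 intermediate filament genes, of which 37 had a row and 15 reached 1 RPKM. Of 54 keratin genes 25 had a row, and 17 of those were under 1 RPKM in both libraries. The basal keratin genes KRT5 and KRT14 were near 0, with 1 and 0 reads for KRT5 and 2 and 1 reads for KRT14 in CDK14-sh and the scramble control. KRT17 and KRT15, also under 1 RPKM, had more, with 21 and 22 reads for KRT17 and 95 and 76 reads for KRT15. KRT15 was 1.39-fold higher (1.02 to 1.91) in CDK14-sh. Besides the 10 genes, those at 1 RPKM or more were KRT10, KRT86, NES, SYNM and BFSP1, with a median log2 ratio of -0.40. NES encodes nestin, which copolymerises with vimentin, and stood at 2.66 RPKM in CDK14-sh and 4.13 RPKM in the scramble control, 1.55-fold lower (1.31 to 1.83). SYNM encodes synemin, another partner of vimentin, and stood at 6.12 RPKM in CDK14-sh and 8.13 RPKM in the scramble control, 1.33-fold lower (1.21 to 1.46). Both thus lay on the side of VIM. SYNM shares 2027 bases (25.9% of its exons) with the antisense row RP11-6O2.4. That row stood at 8.80 RPKM in CDK14-sh and 11.2 RPKM in the scramble control, above SYNM itself, so reads of the pair may be mixed.

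A pair of filament genes stood on the other side. KRT10, a type I keratin of differentiating epidermis, stood at 12.3 RPKM (407 reads) in CDK14-sh and 8.78 RPKM (324 reads) in the scramble control, 1.40-fold higher (1.20 to 1.62). BFSP1, which encodes the lens filament protein filensin, stood at 6.03 RPKM (301 reads) in CDK14-sh and 4.18 RPKM (232 reads) in the scramble control, 1.44-fold higher (1.21 to 1.72). KRT10 shares 56 bases with the antisense row TMEM99, and BFSP1 shares 49.0% of its exons with AL031664.1 on the same strand.

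Keratin filaments are anchored at desmosomes, and vimentin is linked to other structures by plakins. Of the 19 genes in that list 13 reached 1 RPKM, with a median log2 ratio of -0.49: 3 were at least 2-fold lower (3.47% of all rows), 0 higher (3.21%), and 11 were below 0 (45.3%). DSG2, encoding the desmosomal cadherin desmoglein 2, stood at 4.51 RPKM in CDK14-sh and 13.7 RPKM in the scramble control, 3.03-fold lower (2.72 to 3.39). PKP2, encoding the desmosomal plaque protein plakophilin 2, was 2.25-fold lower (1.93 to 2.62), and PPL, encoding periplakin, 2.21-fold lower (1.71 to 2.88). PERP, a desmosomal membrane protein gene, was 1.83-fold lower, EVPL (envoplakin) 1.67-fold, PKP3 (plakophilin 3) 1.73-fold and DST (dystonin) 1.41-fold. DSP, encoding desmoplakin, and PKP4 (plakophilin 4) were not lower. Their ratios were 1.03 (0.973 to 1.10) and 1.02 (0.965 to 1.07), with intervals that include 1. DSG2 shares 171 bases with its antisense row DSG2-AS1.

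Partners of the nuclear lamina lay nearer to the median of all rows. Of 20 genes 16 reached 1 RPKM, with a median of -0.18, 13 below 0 (45.3% of all rows) and none past 2-fold lower or higher (3.47% and 3.21%). TMPO, encoding the lamina-binding LAP2 proteins, was 1.45-fold lower, and LBR, the lamin B receptor gene, 1.35-fold lower (1.27 to 1.44). BANF1, encoding the DNA-bridging protein BAF, was 1.34-fold lower and EMD, encoding emerin, 1.26-fold lower. TMPO shares 713 bases with its antisense row TMPO-AS1.

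Genes for the processing of the lamin tail, which is farnesylated, clipped and methylated, had a median of 0.02 over 5 members, with 2 of 5 below 0 (45.3% of all rows) and 0 past 2-fold. In TPM, values rescaled to a common sum, that median lay on the other side, at -0.13. RCE1, encoding the protease that clips farnesylated tails, was 1.53-fold higher (1.21 to 1.94), and FNTB, the farnesyltransferase beta subunit gene, 1.31-fold higher (1.04 to 1.66). FNTB shares 42.1% of its exons with the readthrough row CHURC1-FNTB, and RCE1 12.7% with C11orf80. ICMT, encoding the methyltransferase, was 1.16-fold lower and ZMPSTE24, encoding the prelamin A protease, 1.11-fold lower.

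Kinases that phosphorylate filament proteins had a median of -0.14 over 15 members, of which 11 were below 0 (45.3% of all rows), 1 at least 2-fold lower (3.47%) and 0 higher (3.21%). PRKCA, encoding protein kinase C alpha, stood at 3.14 RPKM in CDK14-sh and 8.19 RPKM in the scramble control, 2.61-fold lower (2.36 to 2.88). ROCK2, encoding a kinase that phosphorylates vimentin, was 1.51-fold lower. CDK1 and AURKB, whose kinases act on vimentin in mitosis, were 1.36-fold and 1.31-fold lower.

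Genes for turnover and assembly partners of keratins had a median of -0.08 and a mean of -0.24 over 13 of 14 members, with 11 below 0 (45.3% of all rows), 1 at least 2-fold lower (3.47%) and 0 higher (3.21%). SFN, encoding the 14-3-3 protein sigma that binds keratins, stood at 8.32 RPKM in CDK14-sh and 36.4 RPKM in the scramble control, 4.38-fold lower (3.71 to 5.195). The other 14-3-3 genes of the list, YWHAZ and YWHAE, were 1.24-fold and 1.20-fold lower. HSPB1, encoding a small heat shock protein, was 1.28-fold lower. TRADD, encoding an adaptor that binds keratin 18, was covered by 49 CDK14-sh reads and 36 scramble reads, a 1.51-fold ratio whose interval (0.965 to 2.40) includes 1.

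**Figure D5:**
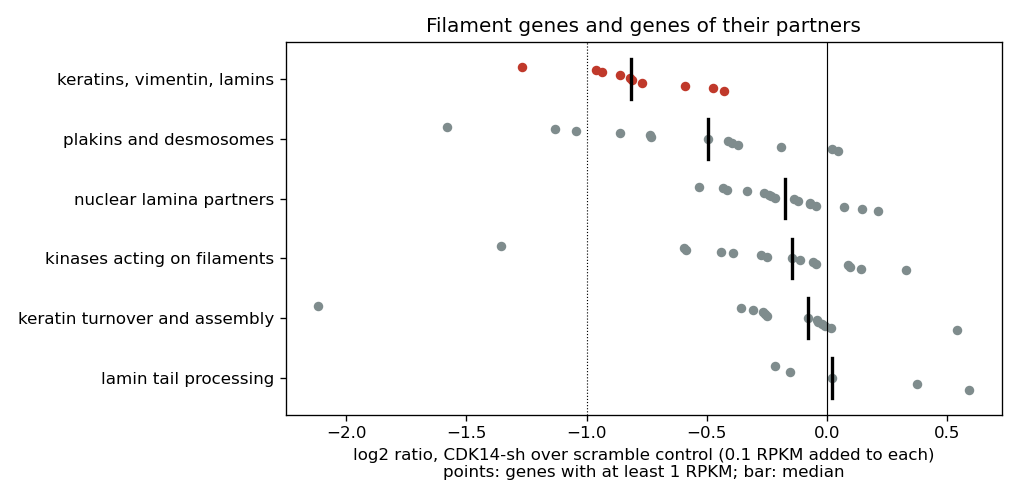
Each point is a gene that reached 1 RPKM in the higher library, placed by its log2 ratio of CDK14-sh over scramble control (0.1 RPKM added to each), and black bars give the median of each list. Medians run from -0.81 for the keratin, vimentin and lamin genes to 0.02 for lamin tail processing.

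Lower genes of this comparison more often carried certain short words in their 3′ untranslated regions. To see whether the filament genes belong to them, all words of 7 bases present in at least 200 of 10349 other protein-coding genes were ranked by the difference in mean log2 ratio between carriers and the rest, divided by its standard error over genes. The 10 filament genes were left out of that ranking, and the longest GENCODE v29 region of each gene was used. The 4 words with the strongest downward difference were the pair GTCATGC with TCATGCA, which overlap each other by letters, and the pair ATCCATA with TCCATAA, which do so too. At least 1 of them occurred in 25.1% of the 10349 genes, and in 57.0% of the 223 of these that were at least 2-fold lower, whose regions were also longer (median 1905 bases against 1358). The words were picked from the same libraries and are given as a description.

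At least 1 of the words occurred in 2 of the 10 filament genes (20%). The regions of the 10 were shorter, with a median of 611 bases against 1358 for the 10349 other genes, so the shares are not compared at like length. The sites are shown with the word in capitals, because they mark which of the 10 genes belong to the carriers. They lie at chr10:17237317-17237337 on the plus strand for VIM, and at chr19:2429963-2429983 and chr19:2428484-2428504 on the minus strand for LMNB2 (GRCh38).
VIM: aaaagaaATCCATAtcttaaa
LMNB2 first site: tgcgtctATCCATActgtgct
LMNB2 second site: aatccgaTCATGCAcctgtcc

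The 6 keratins, LMNA and LMNB1 carried none of the 4 words in the regions searched, which ran from 126 bases in KRT19 to 2527 bases in KRT80. The median log2 ratio of the 8 genes without a word was -0.81, and the values of the carriers were -0.77 for VIM and -0.93 for LMNB2. The carriers lie on either side of the median, so leaving them out could hardly move it, and the part of the words in the lower levels was not tested. Among the other protein-coding genes, the median was -0.09 for carriers and 0.07 for the rest.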

How the data were processed

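Total RNA of MDA-MB-231 cells went into a stranded mRNA library kit, per the labels' protocols. Per the file headers, the authors deposited RPKM values in 1 table, beside the exon positions and summed length of every row. Bowtie 0.12.2, Subread 1.5.1 and featureCounts, with the builds mm8 and GRCh38, stand in the submitters' processing notes without their roles. For strand, overlap and multi-mapping, the sources used here give no options. All 10 rows have the span of GENCODE v29 on GRCh38.

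Reads were recovered from the deposited RPKM, since 100% of nonzero values times length came out whole to within 0.01 read. A count of 3 in 1 kb equals 0.194 RPKM for CDK14-sh and 0.174 RPKM for the scramble control. PCR copies are not independent molecules. Folds are plain RPKM ratios, and log2 ratios, calls and medians use 0.1 RPKM added to each level, which understates the change of low genes. Rows needed 1 RPKM in the higher library. Of all rows, 11992 share exon bases with another.

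The members and gene lists were chosen with earlier results of these data known. Named were CDK14, the 10 members, other filament genes with at least 1 RPKM, and of each partner list the genes past 2-fold with up to 4 more of the largest absolute log2 ratio. Marker genes, keratin genes under 1 RPKM, DSP and PKP4 were named outside this rule. The rule also took 1 gene whose values are left out. With 1 library per group nothing was tested, and no genes of similar pattern were sought, since 2 libraries give no pattern. The ratio, call and interval steps were tested on simulated data. Alternatives covered the pseudocount, level filter, scaling, threshold and overlapping rows. The software was matplotlib 3.10.9, scipy 1.17.1, pandas 2.3.3 and numpy 2.4.6 under Python 3.11.15.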

Additional observations from a re-analysis of the deposited data

How the results depend on the processing

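No paired analysis was possible because neither group had a second library, and leaving out a library leaves no ratio. Of 11 alternatives, 5 can change the ratios of the 10 genes, and they gave 50 values, none above 0. Of these, 39 stayed within their counting interval and 11 moved, 8 of them in TPM. The word-free median, the protein-coding rows and the minimum of 30 reads were chosen after seeing the data. Members at least 2-fold lower numbered 1, and 2 with median centring or trimmed-mean scaling, which add LMNB1 (a shift of 0.04 log2). They numbered 4 in TPM, which shifts the ratios of the 10 genes by about -0.15 log2, and of low rows by more, and adds LMNB1, LMNB2 and KRT19, and 8 at 1.5-fold. In TPM the median of the 10 genes was -0.97 and the medians of the lists were -0.33 for lamina partners, -0.65 for plakins and desmosomes, -0.30 for kinases, -0.23 for keratin turnover and -0.13 for lamin tail processing, whose median was 0.02 in RPKM. In RPKM keratin turnover had a median of -0.08 and a mean of -0.24. Rows overlapping no other hold 5 of the 10 genes, and those 5 were below 0. CDK14 had a log2 ratio of -1.99, and -1.17 with a pseudocount of 1 RPKM.

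Rows at least 2-fold lower and higher numbered 516 and 478. A threshold of 1.5-fold gave 1421 and 1355, a pseudocount of 1 RPKM gave 259 and 176, and a minimum of 5 RPKM gave 177 and 83. Without a level filter there were 2043 and 2173. Protein-coding rows gave 226 and 109, a minimum of 30 reads 290 and 166, and non-overlapping rows 315 and 307, where fewer rows enter. TPM gave 1128 and 609, and leaving mitochondrial rows out of the totals 536 and 622, where more rows were higher than lower, as without a level filter.

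Shares in CDK14-sh and the scramble control taken by reads, without length, were 41.4% and 42.5% for VIM, 30.9% and 30.8% for keratins, and 27.7% and 26.7% for lamins. Type I chains were then 20.9% and 20.8% of keratins, and LMNA 56.8% and 47.7% of lamins. Without KRT8 and KRT18 the shares were 43.9% and 44.2% for VIM, 28.6% and 28.5% for keratins, 27.6% and 27.3% for lamins, and type I chains took 31.9% and 34.5% of keratins. Depth limits the genes with few reads, KRT86 and TRADD among them.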

Other observations

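KRTAP2-3, which encodes a keratin-associated protein of the hair shaft, was picked after its values were seen. It stood at 35.2 RPKM (477 reads) in CDK14-sh and 18.5 RPKM (279 reads) in the scramble control, 1.90-fold higher (1.64 to 2.21), while the hair keratin gene KRT81 was 2.43-fold lower. Genes of this family are close copies of each other, so its level is uncertain.

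Reads of the 10 filament genes made up 0.182% of all assigned reads in CDK14-sh, against 0.302% in the scramble control.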
